A study of Mus musculus with 2 samples.

Results

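The most crowded stretches of distal open chromatin in control late retinal progenitor cells (RPCs) were examined. They are called dense distal clusters here. Each was found in the ATAC-seq peak list of the control library: peaks whose summit lay more than 3 kb from every annotated transcript start were joined to their neighbours across short gaps, the longest gap kept within a cluster being 12.492 kb, and joined regions with at least 10 peaks were kept. This gave 303 clusters with 3884 peaks, 5.20% of the 74637 distal control peaks and 0.814% of the 37208 joined regions. The clusters were thus chosen by their number of control peaks, so that number is a description and not a result.

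The cells came from mouse retina. At postnatal day 1, pups received a GFP-marked plasmid by electroporation into the living eye, either a control plasmid or one that overexpressed Ngn3 (gene symbol Neurog3), a proneural basic helix-loop-helix factor, and GFP-positive cells were sorted 2 days later. Both groups were labelled as retinal progenitor cells and both carried a plasmid and GFP. Each group, control and Ngn3-OE, had 1 library made from 50000 sorted cells. The strain, the promoter of the plasmids and the number of pups pooled are not given in the sources used here, and the sort was on GFP and not on a progenitor marker.

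Enhancers are stretches of regulatory DNA away from gene starts, and they are open to the Tn5 transposase of ATAC-seq when transcription factors hold nucleosomes off. Genes that define a cell type, and genes with elaborate patterns of expression in development, are known to lie among many such elements, often in their own introns or in flanking gene-poor DNA. In the newborn retina the late progenitors give rise mainly to rods, bipolar cells and Müller glia, and factors of the SOX, OTX/CRX, homeodomain and proneural families act on their enhancers. Open chromatin alone does not show that an element is an active enhancer or which gene it serves, and each cluster is named here by the protein-coding gene whose start was the nearest one for more of its peaks than any other gene's.

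The strongest control peak is shown for 9 of the named clusters. They are the 2 clusters with the clearest place in the counts below (Gse1 and Msi2), 3 beside neurogenic or photoreceptor regulators (Neurod4, Prdm1 and Neurog2), 2 beside glial genes (Slc1a3, and Abhd2 next to Rlbp1) and 2 where accessibility was lower in Ngn3-OE (Tox and G430095P16Rik, within Nfix). The sequences are the plus strand of GRCm38 (mm10), at most 300 bases around the summit, and capitals mark matches on either strand to the motifs searched below: the E-boxes CATCTG and CAGCTG, the SOX-type words CCATTGT and CCTTTGT, the OTX/CRX-type word GGATTA, the homeodomain word TAATTA, the AP-1 words TGACTCA and TGAGTCA, and the NFI-type word TTGGCA.
Gse1, chr8:120251190-120251376: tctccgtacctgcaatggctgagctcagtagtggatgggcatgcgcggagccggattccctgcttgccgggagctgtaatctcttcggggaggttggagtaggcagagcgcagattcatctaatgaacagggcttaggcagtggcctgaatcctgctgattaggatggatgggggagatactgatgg
Msi2, chr11:88512637-88512898: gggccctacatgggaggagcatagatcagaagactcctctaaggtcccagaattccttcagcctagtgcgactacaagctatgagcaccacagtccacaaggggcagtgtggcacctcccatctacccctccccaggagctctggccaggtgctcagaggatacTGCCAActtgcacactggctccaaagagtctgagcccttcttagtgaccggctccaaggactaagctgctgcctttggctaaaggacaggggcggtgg
Neurod4, chr10:130263225-130263524: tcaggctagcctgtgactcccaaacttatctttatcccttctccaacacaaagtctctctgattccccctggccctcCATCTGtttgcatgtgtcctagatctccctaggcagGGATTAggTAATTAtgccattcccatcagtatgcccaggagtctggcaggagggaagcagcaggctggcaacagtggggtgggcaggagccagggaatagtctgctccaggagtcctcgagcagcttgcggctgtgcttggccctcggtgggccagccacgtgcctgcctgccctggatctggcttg
Prdm1, chr10:44464604-44464898: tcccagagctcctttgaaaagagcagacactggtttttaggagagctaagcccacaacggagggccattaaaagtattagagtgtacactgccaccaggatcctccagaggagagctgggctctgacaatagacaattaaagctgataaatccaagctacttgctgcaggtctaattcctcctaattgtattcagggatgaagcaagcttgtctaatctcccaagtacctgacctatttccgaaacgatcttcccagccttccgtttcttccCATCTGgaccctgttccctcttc
Neurog2, chr3:127646458-127646740: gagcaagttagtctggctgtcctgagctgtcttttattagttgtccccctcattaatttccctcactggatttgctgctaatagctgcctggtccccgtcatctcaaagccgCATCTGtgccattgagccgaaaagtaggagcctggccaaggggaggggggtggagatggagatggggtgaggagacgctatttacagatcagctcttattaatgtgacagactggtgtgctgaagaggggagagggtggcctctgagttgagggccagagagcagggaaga
Slc1a3, chr15:8605875-8606097: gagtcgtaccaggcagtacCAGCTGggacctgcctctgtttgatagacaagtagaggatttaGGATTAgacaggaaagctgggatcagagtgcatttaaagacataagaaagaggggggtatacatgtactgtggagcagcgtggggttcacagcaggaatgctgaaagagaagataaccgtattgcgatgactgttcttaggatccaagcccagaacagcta
Abhd2, chr7:79327286-79327472: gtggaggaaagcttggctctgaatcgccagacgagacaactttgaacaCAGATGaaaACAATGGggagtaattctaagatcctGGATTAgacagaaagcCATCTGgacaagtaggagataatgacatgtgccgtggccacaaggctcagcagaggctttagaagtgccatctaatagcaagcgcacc
Tox, chr4:6913478-6913777: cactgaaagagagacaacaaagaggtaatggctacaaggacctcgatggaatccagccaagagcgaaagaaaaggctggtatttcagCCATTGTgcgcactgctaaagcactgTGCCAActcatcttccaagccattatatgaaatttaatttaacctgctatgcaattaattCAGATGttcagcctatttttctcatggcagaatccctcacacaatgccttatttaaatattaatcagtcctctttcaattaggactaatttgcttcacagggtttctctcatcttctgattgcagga
G430095P16Rik, chr8:84728504-84728796: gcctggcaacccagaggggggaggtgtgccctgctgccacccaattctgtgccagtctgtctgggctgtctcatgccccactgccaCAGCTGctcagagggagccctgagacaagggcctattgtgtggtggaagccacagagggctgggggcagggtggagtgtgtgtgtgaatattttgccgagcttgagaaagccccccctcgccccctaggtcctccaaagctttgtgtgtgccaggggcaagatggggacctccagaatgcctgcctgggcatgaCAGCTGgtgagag

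None of the words lay in the printed peak of Gse1. The printed peak of Neurod4 held the E-box CATCTG, the OTX/CRX-type word and the homeodomain word, and that of Abhd2 held CATCTG on both strands together with an OTX/CRX-type and a SOX-type word. The printed peak of Tox held a SOX-type word, the NFI-type word and CATCTG, while that of G430095P16Rik held CAGCTG at 2 places. A match is a description of the letters and not evidence of binding.

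The clusters covered 15.8 Mb in all. Their length ran from 11.2 to 226 kb, with a median of 48.4 kb, and the median number of peaks was 12. Peaks took up a median of 3.58% of a cluster's length, and the median gap between neighbours was 3.48 kb. At the threshold, 91 clusters had exactly 10 peaks and 128 regions fell just short with 9. Of the clusters, 16 had 20 peaks or more. They lay on every chromosome but Y: 40 were on chromosome 4, 26 on chromosome 2 and 24 on chromosome 11, against 7 on chromosome 3 and 9 on X.

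**Figure D1:**
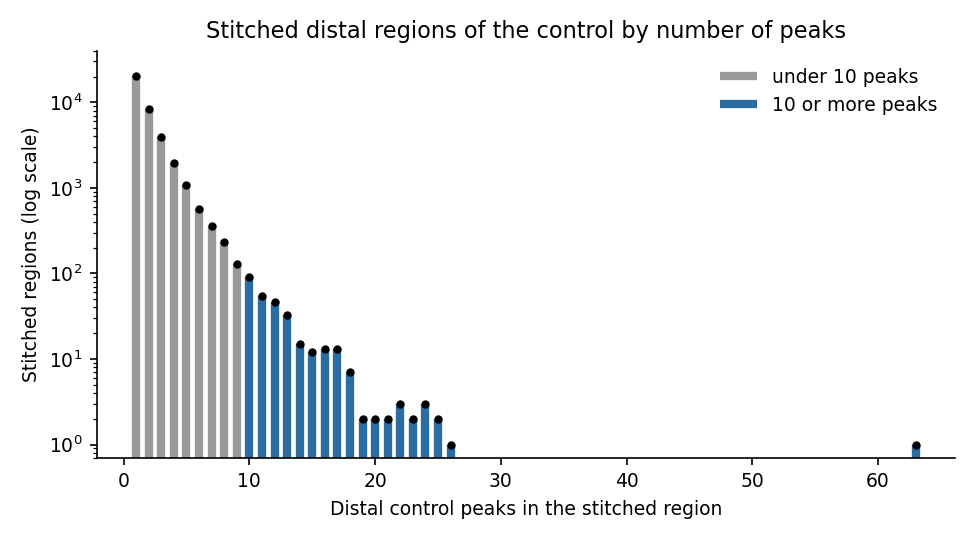
Number of stitched distal regions of the control library (log axis) by the number of control peaks each holds. Grey bars are regions under the threshold of 10 peaks and blue bars the 303 clusters; 1 cluster, at Gse1, stands apart with 63 peaks.

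The largest cluster by far was at Gse1, which encodes a coiled-coil protein found in histone deacetylase complexes. It held 63 control peaks in 226 kb (chr8:120251190-120477551), all of them in introns of Gse1, which the annotation overlaps with a second gene, Gm20388. Other large ones were at Ece1 with 26 peaks (chr4:137836073-137968438), the endothelin-converting enzyme, and at Msi2 (chr11:88438418-88571139) with 25 peaks, an RNA-binding protein of neural progenitors. Foxo6, Celf4 and Casz1 had 24 peaks each, Rtl6 and Sdk2 23 each, and Fam222a, Otub1 and Ccnk 22 each. Casz1 is a zinc finger factor that acts in retinal progenitors and photoreceptors, and Sdk2 is an adhesion molecule of retinal synapses.

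In 188 clusters at least 50% of the length lay in the body of 1 protein-coding gene, 148 lay wholly inside 1, and 80 touched no protein-coding gene body. The 303 clusters had 283 leading genes. Efna5, an ephrin ligand of retinal axon guidance, Ank3, an ankyrin of the axon initial segment, Bcor, a transcriptional corepressor whose loss affects eye development, and Sdk2 each led 3 clusters. The summit lay in an intron for 65.4% of cluster peaks, against 51.4% of the 70753 other distal control peaks. The intronic share was 48.2% for peaks that stood alone, 51.4% in regions of 2 to 4 peaks and 56.1% in regions of 5 to 9 peaks.

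Several genes known from retinal development lay near clusters. Of 148 genes in 8 lists of retinal cell types and progenitor functions, 15 (10.1%) had a start within 50 kb of a cluster, against 418 of 21911 protein-coding genes (1.91%). These lists were drawn up with earlier results of these data known, so the share is a description. The progenitor and glial regulators gave 5 of 26: Meis1 and Six3, homeodomain factors of the early eye field and progenitors, Notch1, the receptor that keeps progenitors from differentiating, Nfix, an NFI factor of late progenitors and glia, and Sox8, a SOX factor of glial cells. The Müller glia list gave 2 of 14, Slc1a3, the glial glutamate transporter, and Rlbp1, which carries retinoids in the visual cycle. The photoreceptor list gave Prdm1, which sets photoreceptor against bipolar fate, and Casz1, 2 of 20.

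The amacrine and horizontal cell list gave Foxn4, needed for amacrine and horizontal cells, and Neurod4, a proneural factor, 2 of 18. The proneural and Notch ligand list also gave 2 of 18, Neurog2, the proneural factor of progenitors leaving the cell cycle, and again Neurod4. The bipolar list gave Lhx3, 1 of 14, and the cell cycle list Top2a, a topoisomerase of dividing cells, and Mcm2, a subunit of the replicative helicase, 2 of 24. None of the 20 retinal ganglion cell genes had a cluster within 50 kb, nor within 100 kb.

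A further list, of neurodevelopmental factors with large flanking enhancer fields, gave 2 of 27 (7.41%). Of 6 lists for cell types outside the 8 retinal lists, 5 had no gene near a cluster. The counts were 0 of 10 for retinal pigment epithelium, 0 of 12 for vascular cells and pericytes, 0 of 6 for astrocytes, 0 of 8 for lens and cornea and 0 of 12 for pancreatic endocrine genes. With lists this short, and 1.91% of all protein-coding genes near a cluster, a count of 0 says little. The microglia list gave 2 of 11, C1qa and C1qb, which are neighbours on chromosome 4 between a cluster led by C1qa and one led by Ephb2, an ephrin receptor. In the cluster led by C1qa, 10 of the 17 peaks were nearest C1qa, and 45.3% of its length lay in the body of Epha8. Whether microglia contributed to these peaks was not tested.

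Peaks in the clusters were of ordinary rank, but their summit pileup was somewhat higher than elsewhere. Strength is given as a rank percentile of the deposited fold enrichment within its own list, with the strongest peak at 100 and the weakest at 0. The median rank was 44.9 for cluster peaks and 45.5 for the other distal peaks, and 3.89% of cluster peaks were in the top 10% of the control list, against 5.21% of the others. A top-10% peak was present in 112 of the 303 clusters. Within a single cluster the range was wide: the strongest peak had a median rank of 87.3 and the weakest one of 6.89. The median pileup at the summit, solved from the deposited values, was 9 tags (quartiles 6 and 15) in clusters and 7 (quartiles 5 and 13) elsewhere.

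The cluster peaks were richer in G and C. Their median GC content, in windows that reached 100 bp to either side of the summit, was 53.2%, against 49.3% for the other distal peaks, and repeats made up 8.28% of these windows, against 10.7%. The median was 47.3% in peaks that stood alone, 49.3% in regions of 2 to 4 peaks and 51.2% in regions of 5 to 9 peaks. Peaks with more than 1 summit made up 6.95% of cluster peaks and 4.85% of the others.

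In the Ngn3-OE library, the clusters held 3551 distal peaks, fewer than the 3884 of control, for a log2 ratio of -0.13 (95% CI -0.19 to -0.064, counting error only). Over all distal DNA the Ngn3-OE list was longer, with 79984 peaks, a log2 ratio of 0.10. The ratio in the clusters was -0.012 with a minimum of 15 peaks, -0.047 with a gap of 5 kb and -0.050 with a gap of 25 kb. Of the clusters, 187 (61.7%) had fewer Ngn3-OE than control peaks, 60 had more and 56 the same number. Regions of 5 to 9 control peaks, chosen on control counts in the same way, had fewer Ngn3-OE peaks in 58.8% of cases, so the share in the clusters was near this background. The same rule run on the Ngn3-OE list gave 405 clusters with 5378 Ngn3-OE peaks and 4360 control peaks, a log2 ratio of control to Ngn3-OE of -0.30 (95% CI -0.36 to -0.25). In either direction the library that did not choose the regions had the lower count in them.

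Of the 303 control clusters, 184 (60.7%, 95% CI 55.1 to 66.1) overlapped a cluster of the Ngn3-OE list, and 182 of the 405 Ngn3-OE clusters (44.9%, 95% CI 40.2 to 49.8) overlapped a control cluster. No control cluster was empty in Ngn3-OE, the lowest count being 4 peaks. In 10 clusters the Ngn3-OE count was 50% of the control count or less.

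**Figure D2:**
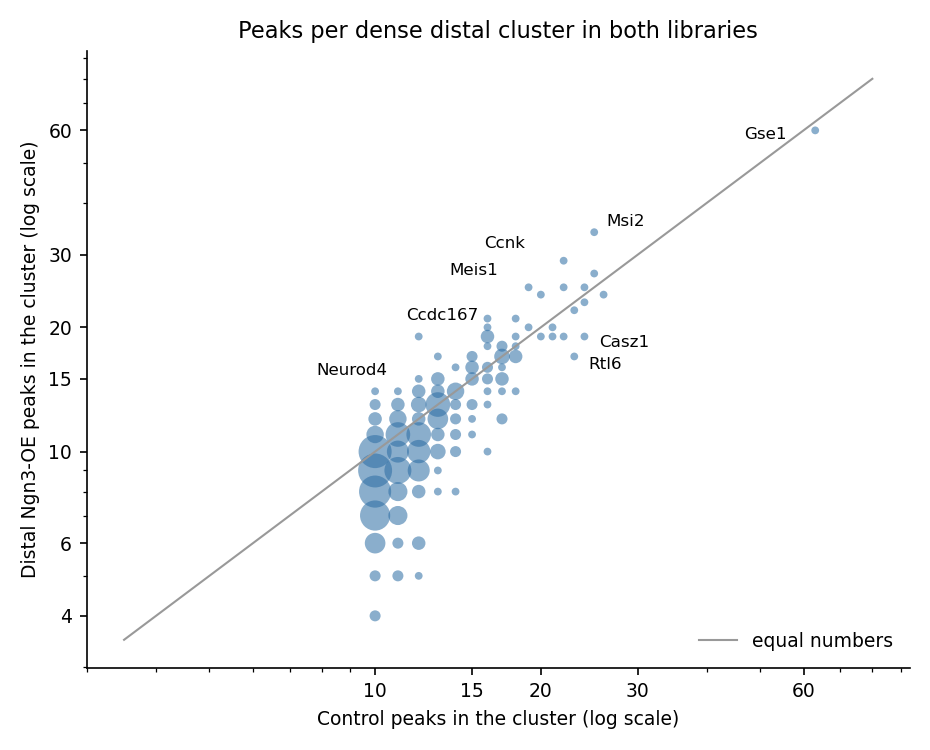
Distal Ngn3-OE peaks against control peaks in each of the 303 clusters, both on log axes. The area of a dot is proportional to the number of clusters at that point, the line marks equal numbers, and 8 named clusters are labelled; clusters were chosen for 10 or more control peaks, so no dot lies further left, and most dots near that edge lie below the line.

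The highest ratios of Ngn3-OE to control counts were at Ccdc167 (12 control and 19 Ngn3-OE peaks), Neurod4 (10 and 14), Msi2 (25 and 34), Ccnk (22 and 29, within Ccdc85c) and Meis1 (19 and 25). At Neurod4 and Ccnk every control peak was shared with Ngn3-OE. Among the lowest ratios were those at Cstf2t (10 and 4, within Prkg1), Ttc29 (10 and 4), Tspan18 (11 and 5) and Smad6 (11 and 5). Smad6 encodes an inhibitor of BMP signalling. These clusters were selected on the ratio, and their values are a description.

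A control peak was counted as shared when an Ngn3-OE peak overlapped it by at least 1 bp. In the clusters 2934 of 3884 peaks were shared (75.5%, 95% CI 74.2 to 76.9) and 950 were control-only (24.5%), beside 25.7% control-only among all distal control peaks. Once the other distal peaks were weighted to the same ranks, 75.3% of them were shared, and the difference was 0.23 percentage points (95% CI -1.14 to 1.56). Under this rule no difference in sharing was detectable at this depth. The difference lay above this interval under other rules, at 8.25 points with a gap of 5 kb (8 clusters), 3.42 with a −log10 q of at least 5, 2.58 with the 100000 peaks of highest −log10 q of each list and 1.602 with a minimum of 15 peaks. The weighting was by rank and not by tags, of which cluster peaks had more. The percentage of peaks that were shared was higher at higher ranks in both sets. At ranks 0 to 10 it was 41.4% of cluster peaks (95% CI 36.8 to 46.1) and 36.8% of the others, at ranks 50 to 60 it was 86.2% and 87.6%, and at ranks 90 to 100 it was 151 of 151 cluster peaks and 99.9% of the others.

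**Figure D3:**
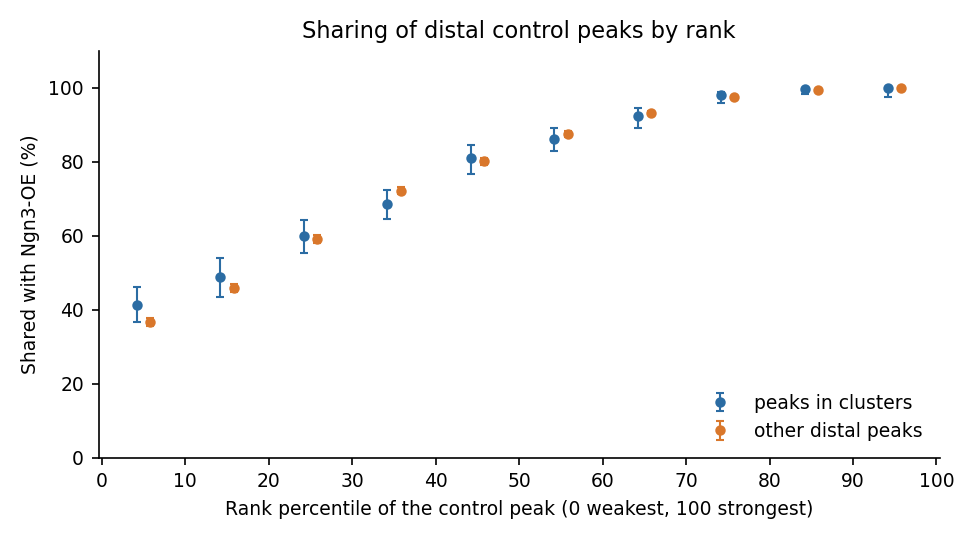
Percentage of distal control peaks overlapped by an Ngn3-OE peak, in steps of 10 points of the control rank percentile, for cluster peaks (blue) and other distal peaks (orange). Bars are 95% Wilson intervals for counting error; both sets climb from 41.4% and 36.8% among the weakest peaks to nearly all among the strongest.

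Control-only peaks of the clusters were weak, with a median of 6 tags at the summit and a median rank of 21.5, against 11 tags for shared peaks. Above rank 50 there were 106 of them, and 1 above rank 80, a peak of 19 tags at rank 83.0 in the cluster led by Sez6l, which was singled out after its value was seen. Of the 3551 Ngn3-OE peaks in the clusters, 624 had no control peak under them and 82.4% were shared, whereas 68.9% of distal Ngn3-OE peaks elsewhere were shared and 30.5% of all distal Ngn3-OE peaks were Ngn3-OE-only. The regions were chosen for many control peaks, so this share is a description. The Ngn3-OE-only peaks were also weak, with a median of 6 tags and a median rank of 22.7 in their own list, and 48 lay above rank 50.

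In 14 clusters every control peak was shared, and in 19 clusters 50% or fewer were. If each peak were shared independently at the mean share of the clusters, clusters of these sizes would give 11.3 and 12.6. The first count is near what counting gives and the second lies above it. That reckoning used 1 share for every peak, although sharing was higher at higher ranks. The fully shared clusters included Neurod4, Prdm1, Ccnk, Fat3 and Nrip1, each given here as a description. The Prdm1 cluster (chr10:44464604-44496572) lies in introns of the gene. Its 10 control peaks met 12 Ngn3-OE peaks, of which 1 was Ngn3-OE-only. The summit pileup of its strongest control peak, printed above, was 68 tags in control and 77 in Ngn3-OE, with ranks of 94.3 and 94.6. The peak nearest the other end of the cluster had 23 tags in control and 42 in Ngn3-OE, with ranks of 71.7 and 86.3. Summed over its shared peaks, the cluster had 278 tags in control and 341 in Ngn3-OE (log2 ratio 0.20 relative to all shared distal peaks, 95% CI -0.03 to 0.43).

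At Neurod4 (chr10:130259506-130296737) the strongest peak had 65 tags in control and 100 in Ngn3-OE, at ranks 94.2 and 97.6. A peak with 20 control tags had 34 in Ngn3-OE. Of the 10 shared peaks 6 had a higher and 4 a lower rank in Ngn3-OE. The lower ones included a peak that went from 10 tags and rank 59.6 to 5 tags and rank 10.7, and a group of 3 weak Ngn3-OE-only peaks of 4, 6 and 7 tags lay around it. The summed pileup of the 10 shared peaks was 181 tags in control and 237 in Ngn3-OE, a log2 ratio of 0.29 (95% CI 0.01 to 0.57) relative to all shared distal peaks, the reference for every such ratio of tags given here.

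The Neurog2 cluster (chr3:127625362-127662487) held 11 control and 10 Ngn3-OE peaks, 9 of the control peaks being shared. Its strongest peak had 40 tags in control and 34 in Ngn3-OE, at ranks 90.6 and 92.0. A peak with GGATTA and an AP-1 word went from 14 tags at rank 51.8 to 35 tags at rank 85.9. A peak with SOX-type, homeodomain and NFI-type words went from 27 tags at rank 88.1 to 6 tags at rank 40.3. Higher and lower peaks thus stood side by side, and the summed pileups of 179 and 174 tags did not differ beyond counting error (log2 ratio -0.14, 95% CI -0.44 to 0.16).

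**Figure D4:**
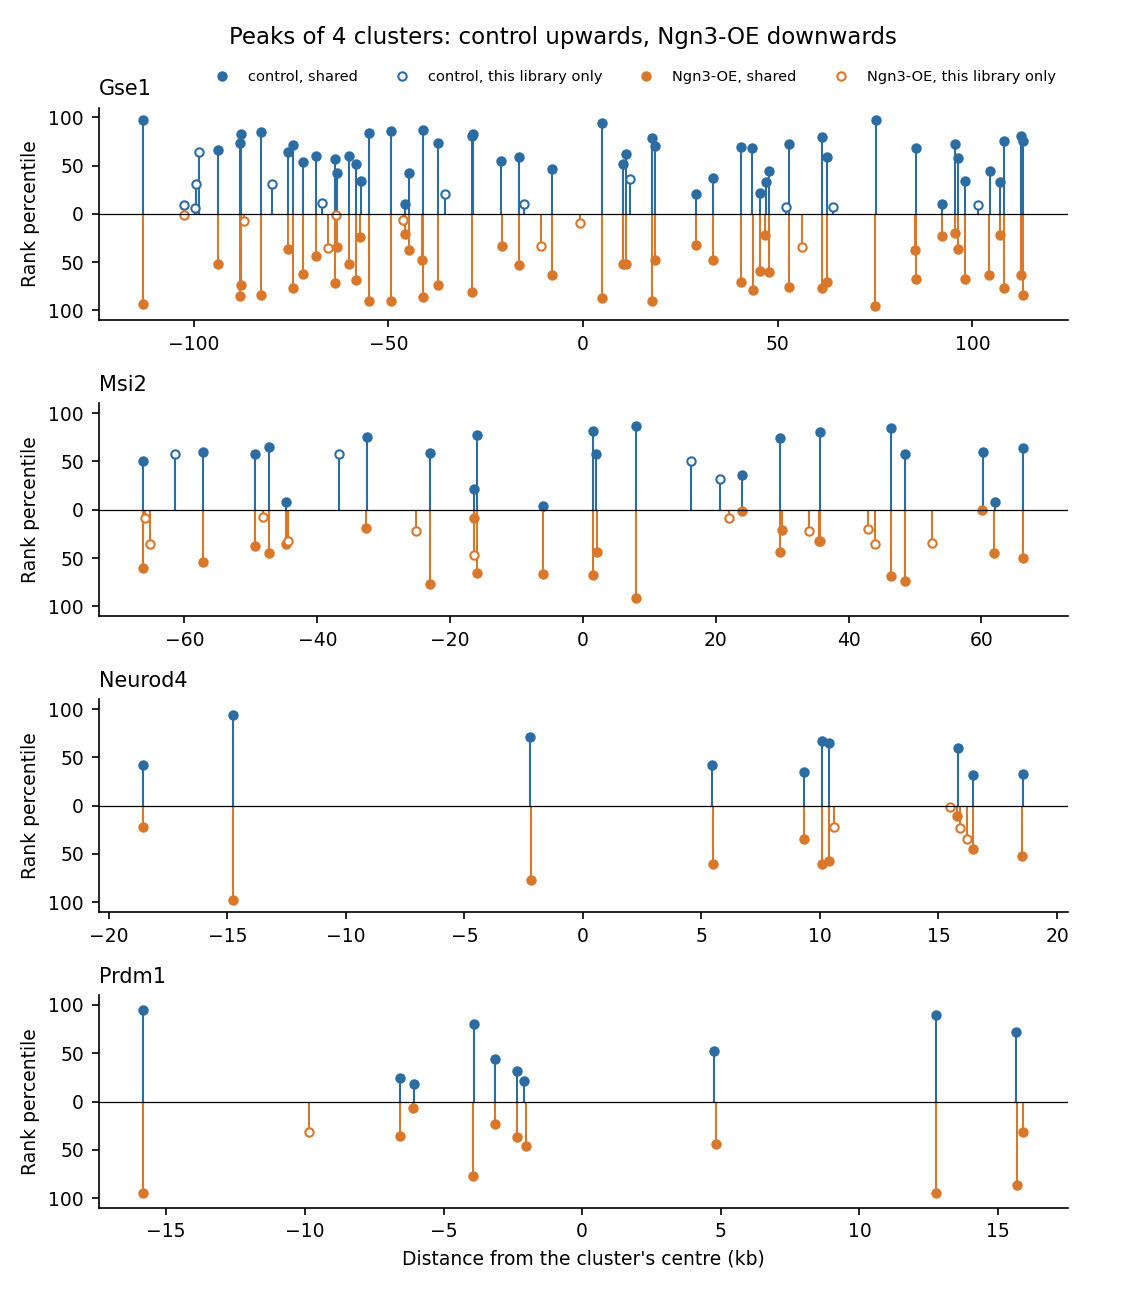
Peaks of the clusters at Gse1, Msi2, Neurod4 and Prdm1 by distance from the cluster's centre (kb), with the rank percentile of control peaks drawn upwards in blue and of Ngn3-OE peaks downwards in orange. Filled dots are shared peaks and open dots peaks of 1 library; open dots sit mostly at low ranks, and Neurod4 and Prdm1 have none in control.

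The rank shift of a shared peak is its Ngn3-OE rank minus its control rank, with the overlapping Ngn3-OE peak of highest fold enrichment taken. The median shift in the clusters was 2.36 points (95% CI 1.67 to 2.96), against 1.64 for the other distal peaks. It was 0.99 points with a gap of 5 kb and turned to -0.0033 when each list was limited to its 100000 peaks of highest −log10 q. Less what peaks of the same rank decile shifted elsewhere, 0.17 points remained. A shift of 20 points upwards was seen in 549 of the 2934 shared cluster peaks (18.7%), beside 18.2% of all shared distal peaks, and one of 20 points downwards in 391 (13.3%), beside 13.1%. Both shares were near the background.

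The median shift was above 0 in 211 clusters (69.6%), against 65.1% of regions of 5 to 9 peaks, and below 0 in 92. The intraclass correlation of the shift within clusters, after removal of what the rank decile gave, was -0.0073, and 0.017 in regions of 5 to 9 peaks. For sharing, the squared deviation of a cluster's number of shared peaks from that given by their ranks, relative to its binomial variance, averaged 1.18 over clusters and 1.01 over regions of 5 to 9 peaks. These values describe peaks of 1 pair of libraries, and neighbouring peaks share their library and local depth.

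The summed summit pileup of shared peaks, an addition made after the data were seen, gave a second view by cluster. Ratios are log2 of Ngn3-OE over control relative to all shared distal peaks, for which the log2 ratio was 0.097. They ran from -0.92 at Tox to 0.67 at Tmem150c with a median of 0.0032. The counting interval lay above 0 in 22 clusters (7.26%) and below 0 in 27 (8.91%), beside 7.58% and 9.07% of regions of 5 to 9 peaks. The clusters summed a median of 122 control tags and those smaller regions 56. An Ngn3-OE peak that overlapped 2 or more control peaks was counted for each, which touched 69 shared cluster peaks.

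The cluster in Tox (chr4:6899429-6958802), a high mobility group box factor, had the lowest summed pileup ratio. It held 14 control and 14 Ngn3-OE peaks, and its 9 shared peaks summed 203 tags in control and 115 in Ngn3-OE (log2 ratio -0.92, 95% CI -1.25 to -0.59). The peak printed above went from 36 tags to 10. The peak next to it in strength, which held a SOX-type word, went from 28 to 13 tags, and a peak with TAATTA from 23 to 8. SOX-type words lay in 4 control peaks of the cluster and TAATTA in 5, and not all are given here. Of the 9 shared peaks 3 had a higher and 6 a lower rank in Ngn3-OE. The median rank shift of the cluster was -13.4 points, while 1 of its peaks went from 13 to 19 tags.

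The cluster led by G430095P16Rik (chr8:84728504-84766678) lies wholly within Nfix. Its 8 shared peaks summed 135 tags in control and 85 in Ngn3-OE (log2 ratio -0.76, 95% CI -1.16 to -0.37). Most of the difference came from the printed peak with CAGCTG at 2 places, which had 54 tags in control and 18 in Ngn3-OE, and from a peak with CAGCTG, a SOX-type and an NFI-type word, which had 20 and 9. A peak of 23 tags in control had 25 in Ngn3-OE. Beside these lower tags, 5 Ngn3-OE-only peaks of 4 to 10 tags lay in the same cluster, so the peak count was 13 against 11.

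Msi2 showed the same split between counts and strength. It had 11 Ngn3-OE-only peaks against 4 control-only peaks, yet its 21 shared peaks summed 281 tags in control and 226 in Ngn3-OE (log2 ratio -0.41, 95% CI -0.66 to -0.16) and their median rank shift was -14.0 points. The peak printed above went the other way, from 26 to 38 tags and from rank 86.6 to 90.9. A peak of 19 tags at rank 74.8 in control had 5 tags and rank 18.9 in Ngn3-OE. Tead1, a factor of Hippo signalling, with a log2 pileup ratio of -0.46 (95% CI -0.78 to -0.14), had a median shift of -14.7. Tpra1, beside Mcm2, and Rplp1 had shifts of -14.1 and -13.8, but their pileup intervals spanned 0.

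The highest median rank shifts were at Wasf3 (23.4 points), Cmpk2 (22.2), Trib1 (22.2), Cdcp2 (21.1) and Prok2 (20.6). They were chosen by this value, which covers shared peaks alone. Their peak counts, control first, were 10 and 8 at Wasf3, 11 and 7 at Cmpk2, 10 and 9 at Trib1, 10 and 8 at Cdcp2 and 10 and 12 at Prok2. Their summed pileups were 62 tags in control and 83 in Ngn3-OE at Wasf3, 45 and 75 at Cmpk2, 116 and 180 at Trib1, 75 and 101 at Cdcp2 and 71 and 114 at Prok2. Less what other peaks of the same rank decile shifted, medians of 18.2 points at Wasf3, 11.5 at Cmpk2, 18.1 at Trib1, 7.66 at Cdcp2 and 10.2 at Prok2 remained. Only at Cmpk2, Trib1 and Prok2, among these 5, did the interval of the pileup ratio exclude 0. The pileup comes from the same shared peaks on which the 5 were chosen, so it is not a separate check.

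The cluster that reaches over Abhd2 (chr7:79262662-79343114), whose edge is 34.6 kb from the start of Rlbp1, had a median shift of 11.4 points and a summed pileup of 188 tags in control and 259 in Ngn3-OE (log2 ratio 0.37, 95% CI 0.09 to 0.64). Of its 11 shared peaks 10 had a higher rank in Ngn3-OE. The peak count went the other way, from 16 in control to 13, and 5 control peaks, 1 of them at rank 75.3, were control-only. No cluster of the Ngn3-OE list overlapped it. A peak with GGATTA went from 11 to 24 tags, another with GGATTA from 19 to 38, and the printed peak with GGATTA from 23 to 32. GGATTA lay near the summit in 6 control peaks of this cluster, and the others are not given here. At Slc1a3 (chr15:8577656-8633590) the printed peak, which also held GGATTA, had 32 tags in control and 53 in Ngn3-OE, whereas the summed pileups of the cluster were 257 and 234 tags (log2 ratio -0.23, 95% CI -0.49 to 0.02). Ccdc167 (chr17:29704901-29756298) was higher in both measures, with a median shift of 13.7 points (6.15 less what the rank deciles gave) and 139 and 205 tags (log2 ratio 0.46, 95% CI 0.15 to 0.77).

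For the other clusters near retinal genes, the pileup ratio could not be told from 0: Casz1 (284 and 303 tags), Meis1 (241 and 253), Six3 (225 and 204), Notch1 (125 and 120), Lhx3 (85 and 112), Myo1h beside Foxn4 (148 and 162), Lmf1 beside Sox8 (85 and 105) and Rara beside Top2a (108 and 95), control first. Gse1 had 1186 tags in control and 1305 in Ngn3-OE, which did not differ beyond counting error (log2 ratio 0.04, 95% CI -0.07 to 0.15). Of its 63 control peaks 51 were shared, and 25 of them had a higher and 26 a lower rank in Ngn3-OE. The printed peak had 48 tags in control and 42 in Ngn3-OE.

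The motifs were searched on both strands up to 100 bp from the summit. CAGCTG lay in 26.3% of cluster peaks and 21.6% of other distal peaks, a difference of 4.69 points (95% CI 3.30 to 6.13). CATCTG lay in 26.3% and 25.02%, GGATTA in 15.7% and 16.9%, TAATTA in 8.81% and 10.7%, TTGGCA in 13.6% and 12.498%, a SOX-type word in 9.81% and 10.3%, and an AP-1 word in 3.99% and 4.29%. Base composition moved with these shares. When the other peaks were weighted to the GC content of the cluster peaks, the difference for CAGCTG was 0.66 points that for GGATTA turned from -1.21 to 1.84 points and that for TAATTA from -1.88 to 1.595 points.

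Within the clusters, the share of some words differed between shared and one-library peaks. These shares were taken for cluster peaks alone, so whether they are particular to the clusters was not tested. GGATTA, the word bound by OTX2 and CRX, had its lowest share, 7.05% (95% CI 5.59 to 8.86), in control-only peaks. Its share was 18.5% (95% CI 17.1 to 20.0) in shared peaks, while in Ngn3-OE-only peaks it was 16.8% (95% CI 14.1 to 20.0). Of the 610 cluster peaks with GGATTA 10.98% were control-only, against 27.0% of those without, and the 543 shared ones shifted by a median of 7.42 points (95% CI 5.99 to 8.58), against 1.04 (95% CI 0.57 to 1.62) without. Of the other distal peaks 16.9% with the word were control-only and 27.5% of those without, and the shifts there were 6.96 and 0.69 points.

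For the SOX-type words the control-only peaks had the highest share. Control-only peaks held them in 12.53% of cases (95% CI 10.6 to 14.8), shared peaks in 8.93% (95% CI 7.95 to 10.02) and Ngn3-OE-only peaks in 6.25% (95% CI 4.61 to 8.43). Of the 381 cluster peaks with such a word 31.2% were control-only, against 23.7% of those without, and the median shift was -0.043 points (95% CI -3.02 to 2.13) against 2.57 (95% CI 1.86 to 3.21). Outside clusters 32.8% of peaks with the word were control-only, against 24.9% without, and the shifts there were -1.04 and 2.12 points. A low shift was not particular to the SOX-type words. With TAATTA the shift in the clusters was -0.71 points (95% CI -3.56 to 1.10), and without it 2.64 (95% CI 1.95 to 3.28). In other distal peaks these shifts were 0.48 and 1.91 points. Of cluster peaks with TAATTA 23.1% were control-only, against 24.6% without, and of other distal peaks 28.5% against 25.4%.

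CATCTG, an E-box bound by proneural factors, had a share of 30.9% (95% CI 27.4 to 34.7) in the Ngn3-OE-only peaks of the clusters, and its share in their control-only peaks was 23.4% (95% CI 20.8 to 26.2). Shared peaks with it shifted by 3.72 points (95% CI 2.61 to 4.92), and those without by 1.82 (95% CI 1.05 to 2.50). Other distal peaks shifted by 3.25 points with it and 1.07 without. Of cluster peaks with CATCTG 21.7% were control-only, against 25.4% without, and of other distal peaks 21.8% against 27.0%. CAGCTG, the other E-box, lay in 27.6% of shared peaks (95% CI 26.0 to 29.2). In the one-library peaks the intervals overlapped: its share was 24.7% (95% CI 21.5 to 28.2) in the Ngn3-OE list alone and 22.4% (95% CI 19.9 to 25.2) in the control list alone, and the shift was 1.73 points with it and 2.44 without. For TTGGCA the control-only share was 16.0% (95% CI 13.8 to 18.5) and the Ngn3-OE-only share 9.94% (95% CI 7.83 to 12.53). Of cluster peaks with it 28.8% were control-only, against 23.8% without, and of other distal peaks 27.7% against 25.4%. Shared cluster peaks with TTGGCA did not have a lower shift. It was 2.71 points (95% CI 0.64 to 3.95) with the word and 2.26 (95% CI 1.56 to 2.93) without, and these intervals overlapped. In other distal peaks the shift was lower with TTGGCA, at 0.69 points against 1.79 without. Intervals here cover counting error only, and with 1 library per group none of these values tests the condition.

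**Figure D5:**
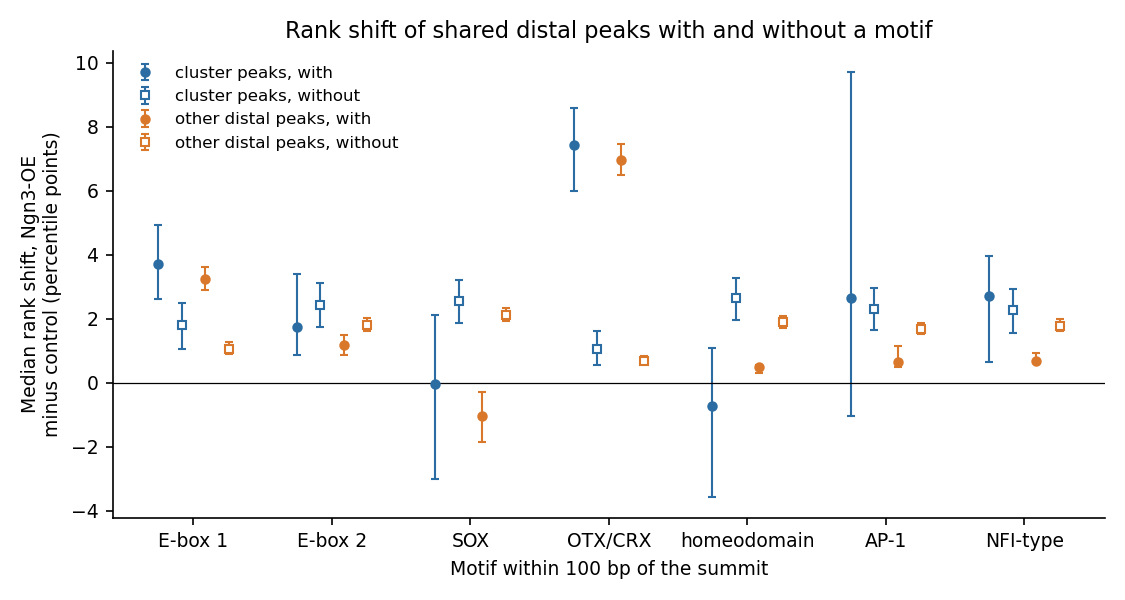
Median rank shift of shared distal peaks (Ngn3-OE minus control, percentile points) with (filled) and without (open) each motif, for cluster peaks in blue and other distal peaks in orange; E-box 1 is CATCTG and E-box 2 CAGCTG, and bars are 95% intervals of the median from order statistics. Peaks with the OTX/CRX word stand highest in both sets, at 7.42 and 6.96 points.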

How the data were processed

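ATAC-seq was measured in 2 libraries of sorted retinal cells, 1 per group, grouped by the sample titles. According to the study's methods, the authors trimmed reads with Trimmomatic, aligned them to mm10 with Bowtie2, removed duplicate, mitochondrial and blacklisted reads, kept fragments up to 120 bp, shifted the read ends for Tn5 and called peaks in each library separately with MACS2 (q-value limit 0.05). Longer nucleosomal fragments therefore do not enter the peaks. Of the deposited columns, the fold enrichment at the summit (a ratio over local background), the −log10 p-value, the −log10 q-value and the summit offset were used, and the integer score was not. The authors did not normalise these values between libraries, so only ranks within a list and recovered tags were compared.

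Lines with the same interval were merged into 1 peak at the summit of highest −log10 q, which left 117165 control and 124935 Ngn3-OE peaks. Midpoints replaced the missing summit of 1 control and 3 Ngn3-OE lines, and lines off the assembled chromosomes (159 and 150) were left out. Transcript starts came from GENCODE release M21 (all transcripts) and sequence from GRCm38. Whole-number tags at the summit were solved from fold enrichment and −log10 p (largest residual 0.00056 in control and 0.00055 in Ngn3-OE). The smallest local background was 0.261 tags in control and 0.257 in Ngn3-OE. The tag extension is not given in the sources used here, and the depth of each library in reads is unknown.

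Shares carry 95% Wilson intervals, differences of shares Newcombe intervals, ratios of counts and tags a normal interval on the log scale, and medians order-statistic intervals. The rank-weighted difference in sharing is an exception. Its interval is the Wilson interval of the cluster share, with the weighted share of the other peaks held fixed. All intervals cover counting error alone and treat neighbouring peaks as independent. The condition could not be tested with 1 library per group. Named clusters were the 10 with most control peaks, where a tie at 22 peaks was broken by length. They also included the 5 highest and 5 lowest by count ratio ((Ngn3-OE + 1) over (control + 1)) and by median rank shift. Clusters within 50 kb of a gene of the retinal lists were named too. Of these, 2 are not reported here. Other clusters named were chosen after their values were seen. The members, gene lists and motifs were chosen with earlier results of these data known. Python 3.11.15, pandas 2.3.3, NumPy 2.4.6, SciPy 1.17.1 and matplotlib 3.10.9 were used, and the steps were tested on simulated data. Other gaps, peak minimums, start distances, annotations, q-value limits, overlaps, windows and reaches were tried as alternatives. The study's list of differential regions and its RNA-seq data were not used here.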

Additional observations from a re-analysis of the deposited data

How the results depend on the processing

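The number of clusters depended on the rule. It was 8 with a gap of 5 kb, 1187 with 25 kb, 664 with a minimum of 8 peaks, 63 with a minimum of 15, 524 with summits more than 1 kb from a start, 30 with a −log10 q of at least 5 and 144 with the 100000 peaks of highest −log10 q in each list. The shared percentage was 87.1 with a gap of 5 kb, 79.1 with a minimum of 15 peaks, 80.6 with a −log10 q of at least 5, 64.8 with an overlap of 50% of both peaks and 72.1 with summits within 100 bp. The difference in sharing from the other distal peaks, in percentage points, was 8.25 with a gap of 5 kb, 1.602 with a minimum of 15 peaks, 3.42 with a −log10 q of at least 5 and 2.58 with the 100000 strongest peaks. The median rank shift was 0.99 points with a gap of 5 kb and 1.62 with a minimum of 15 peaks, and it turned to -0.0033 with the 100000 strongest peaks. The log2 ratio of Ngn3-OE to control counts was -0.047 with a gap of 5 kb, -0.050 with 25 kb and -0.012 with a minimum of 15 peaks. The percentage of clusters met by an Ngn3-OE cluster was 75 with a gap of 5 kb, 79.4 with 25 kb and 67.2 with a minimum of 8 peaks. The difference for CAGCTG was 3.09 points in windows of 50 bp to either side and 0.66 at equal GC content, that for the SOX-type words -2.16 in windows of 250 bp, and that for GGATTA turned to 0.65 with a minimum of 15 peaks and 1.84 at equal GC content. The GC weighting was chosen after the data were seen. Of the 148 retinal genes, 24 (16.2%, against 3.98% of all protein-coding genes) lay near a cluster with a minimum of 8 peaks and 3 (2.03% against 0.456%) with a minimum of 15. For the results that moved or turned, the cause was not tested. The other 64 of 96 alternatives, among them the basic transcript set, which was also added after the data were seen, stayed within the counting interval or within 1.5 times of a count. The median cluster peak rested on 9 tags, which limits the ranks of weak peaks most. No paired analysis was possible because each group had 1 library and the replicate number 1 was given by accession order.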
